A study of Mus musculus with 1 sample.

Results

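The surface of ovarian surface epithelial cells was examined through 10 genes for membrane glycoproteins and uroplakins: Upk1b, Upk3b, Upk1a, Msln, Muc16, Muc1, Pdpn, Podxl, Lrrn4 and Gpm6a. They were taken by name with earlier results of these data known, as were the other gene lists below. Shares over all genes are therefore set beside their counts as description only. Every probe set whose single annotated gene was one of the 10 was used. This gave 16 of 34945 probe sets with a single annotated gene and 10 of 18193 genes. No probe set that names several genes included any of the 10. The sample came from wild-type mice aged 3 months, and its total RNA was hybridised to 1 Affymetrix array in a study that compares mice of different genotypes. Only this wild-type array was analysed here, so no value has a replicate error and no genotypes were compared. Neither the strain nor the number of animals behind the RNA is given in the sources used here.

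The ovarian surface epithelium is a single sheet of mesothelial-type cells that is continuous with the lining of the abdominal cavity. Mesothelial cells carry a coat of sialic acid-rich glycoproteins and membrane mucins, which keeps opposing surfaces from sticking, and microvilli that are held up by proteins linking this coat to actin. Uroplakins are best known as the plaque proteins of bladder urothelium, where the tetraspanins Upk1a and Upk1b each pair with a single-pass partner: Upk1a with Upk2, and Upk1b with Upk3a or its relative Upk3b. Mesothelin, encoded by Msln, is a surface protein on a lipid anchor that binds the mucin encoded by Muc16.

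Most of the 10 genes were read far above background. Background was taken as an intensity of up to 46.5, the 95th percentile of 126 probe sets for odorant, pheromone and bitter taste receptors and hair keratin-associated proteins, whose median was 13. The brightest probe set exceeded this limit for 9 of the 10 genes, against 62.8% of all 18193 genes. It exceeded 10 times the limit, an intensity of 465, for 8 of the 10, against 29.1% of all genes. Muc1, at 51, lay just above the limit and Upk1a, at 37, just below it; with a limit set from the 99th percentile instead Muc1 was below it, and with one from the 90th Upk1a was above it. By their brightest probe sets the 8 others began at 2047, so that none fell between 51 and 2047. Dimmer probe sets of Podxl, at 519, and Upk1b, at 1617, did lie in that gap.

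The number of probe sets affects such counts, because a gene with several has more chances to pass. Of the 10 genes, 6 had 1 probe set, 3 had 2 and 1 had 4. Among the 6 with a single probe set, 5 passed the limit and 4 passed 10 times the limit, against 47.3% and 17.4% of all genes with 1 probe set. Counted by probe set, 15 of 16 were above the limit and 14 above 10 times the limit, against 55.1% and 21.0% of all probe sets with a single gene. The median brightest level was 12.26 (log2 intensity) for the 10 genes and 7.06 over all genes. Probe sets differ in affinity, so the intensities of different genes are not ranked here. In 1 bulk library, a few cells with much transcript and many cells with little cannot be told apart.

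**Figure D1:**
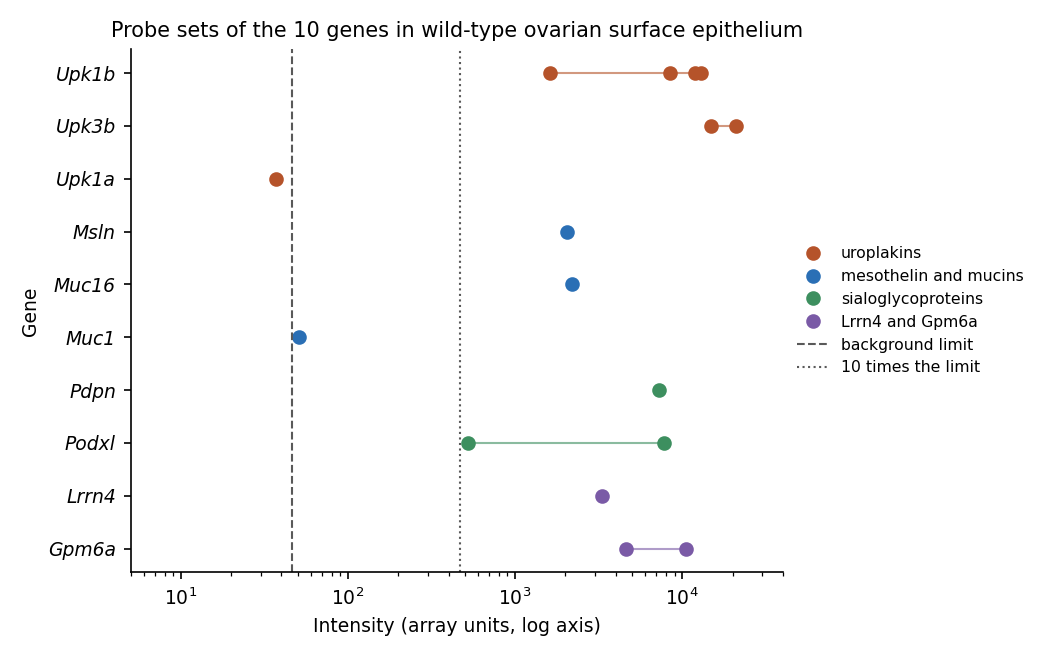
Intensity of each of the 16 probe sets of the 10 genes on a log axis, with 1 point per probe set and a line joining probe sets of the same gene; the dashed line is the background limit of 46.5 and the dotted line 10 times that limit. Only Muc1, at 51, and Upk1a, at 37, lie near the dashed line, and the lowest other point is Podxl at 519.

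**Figure D2:**
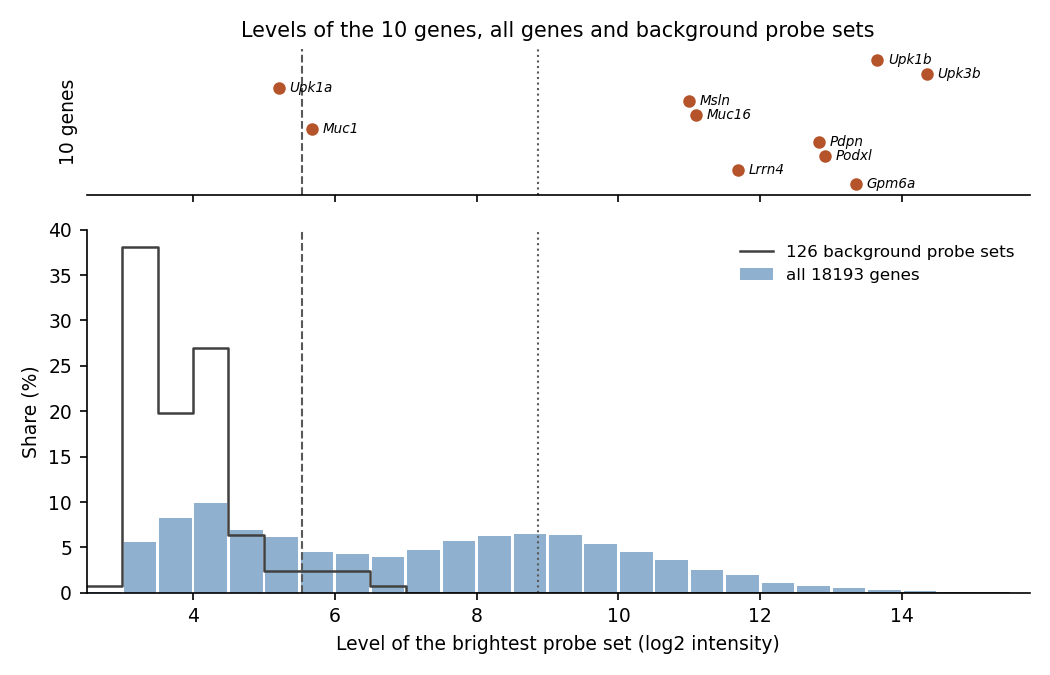
Upper panel: log2 intensity of the brightest probe set of each of the 10 genes. Lower panel: share of all 18193 genes (bars) and of the 126 background probe sets (outline) in bins of log2 intensity, with the same dashed limit and dotted line at 10 times the limit as above; 8 of the 10 genes lie to the right of the dotted line, as do 29.1% of all genes.

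Of the uroplakins, Upk1b and Upk3b were bright and the others read 104 or less. Upk3b, a single-pass uroplakin also used as a marker of mesothelium, had 2 probe sets at 14848 and 20836, the brighter 448 times the limit. That brighter one has a marked identifier, meaning a letter before the ending, as in _s_at. The unmarked one was at 319 times the limit. Upk1b, the tetraspanin partner of Upk3b, had 4 probe sets at 1617, 8393, 11906 and 12867, the brightest, which is unmarked, 277 times the limit. Every probe set of both genes was therefore above 10 times the limit. The second uroplakin tetraspanin did not follow: the single probe set of Upk1a read 37, or 0.796 times the limit.

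None of the uroplakins outside the 10 genes passed 10 times the limit. Upk2, the urothelial partner of Upk1a, read 104, above the limit. Upk3a, the urothelial partner of Upk1b, read 18, and Upk3bl, a relative of Upk3b that lies next to it in the RefSeq annotation of GRCm38.p6, read 21. In all, 3 of 6 measured uroplakin genes were above the limit, against 62.8% of all genes. Above 10 times the limit were 2 of 6, against 29.1%. The median level of the 6 was 5.95 (log2 intensity), against 7.06 over all genes. Both genes of the pair Upk1b and Upk3b were thus read at high intensity, whereas the pair Upk1a and Upk2 read 37 and 104. Each of these relatives was read by 1 probe set only.

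Promoter windows from RefSeq (build GRCm38.p6; 300 bases that span a transcript start) were found for 7 of the 10 genes, and those of the bright Upk3b and the dim Upk1a are shown so that the 2 uroplakins can be compared. They lie at chr5:136038246-136038545 on the plus strand and chr7:30612685-30612984 on the minus strand, and both are written 5′ to 3′ on the gene's strand. Capitals mark matches, on either strand, to any of 6 short motifs: the TATA box TATAAA, the GC box GGGCGG, the CCAAT box, the GATA factor motif AGATAA, the TEAD factor motif CATTCC, and GCGNGGGCG, which WT1 and EGR factors share and which can overlap a GC box.
Upk3b: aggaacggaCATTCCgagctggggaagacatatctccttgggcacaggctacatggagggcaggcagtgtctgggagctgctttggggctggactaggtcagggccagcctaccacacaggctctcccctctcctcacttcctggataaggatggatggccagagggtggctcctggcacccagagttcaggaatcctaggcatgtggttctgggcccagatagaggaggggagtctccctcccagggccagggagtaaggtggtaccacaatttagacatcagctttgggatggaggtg
Upk1a: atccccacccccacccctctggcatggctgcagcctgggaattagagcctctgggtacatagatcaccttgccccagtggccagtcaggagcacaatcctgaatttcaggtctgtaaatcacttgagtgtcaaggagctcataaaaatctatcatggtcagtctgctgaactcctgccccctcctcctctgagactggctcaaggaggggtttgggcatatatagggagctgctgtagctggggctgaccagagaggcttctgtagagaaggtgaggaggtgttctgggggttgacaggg
The Upk3b window held 1 match, to CATTCC at base 10, and the Upk1a window held none of the 6. CATTCC occurred in 14.7% of all 32851 promoter windows in the table. The Upk3b window had 2 CG dinucleotides and the Upk1a window 0, against a median of 7 over all windows. These are matches of letters and do not show binding.

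Mesothelin and the mucin that binds it were both bright. Msln, whose product is cut from a longer precursor, read 2047 on its only probe set, 44.0 times the limit. Muc16, a very large membrane mucin that in humans carries the tumour antigen used to follow ovarian cancer, read 2181 on its only probe set, 46.9 times the limit. Muc1, the membrane mucin of most glandular epithelia, read 51, or 1.10 times the limit, a margin of 0.13 (log2). Rounding of the deposited values to whole numbers moves a value at the limit by 0.015 (log2), less than that margin.

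Other mucins read 88 or less. Of 8 measured membrane mucins 3 were above the limit, namely Muc16, Muc1 and Muc20, and Muc16 alone was above 10 times the limit. Over all genes the shares were 62.8% and 29.1%. Muc20 read 28 and 65 on its 2 probe sets, which lay on opposite sides of the limit. Among the others, Muc4 read at most 13, Muc13 at most 37, Muc15 14, Muc3 16 and Emcn, the endothelial mucin, 11. The median of the 8 was 4.60 (log2 intensity). The secreted gel-forming mucins Muc2, Muc5ac and Muc5b read 88, 59 and 73, so 3 of 3 passed the limit and 0 of 3 passed 10 times the limit. The relatives of mesothelin known from the inner ear, Strc and Otoa, read 18 and 33, both below the limit.

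The windows of Muc16, at chr9:18674554-18674853 on the minus strand, and of Muc1, at chr3:89228806-89229105 on the plus strand, are shown as the corresponding pair of mucins, with the same 6 motifs in capitals.
Muc16: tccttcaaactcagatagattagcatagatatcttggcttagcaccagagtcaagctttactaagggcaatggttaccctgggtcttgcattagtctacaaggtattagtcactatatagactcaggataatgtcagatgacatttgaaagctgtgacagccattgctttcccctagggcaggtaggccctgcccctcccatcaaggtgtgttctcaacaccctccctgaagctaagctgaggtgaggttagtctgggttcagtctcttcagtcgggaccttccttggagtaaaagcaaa
Muc1: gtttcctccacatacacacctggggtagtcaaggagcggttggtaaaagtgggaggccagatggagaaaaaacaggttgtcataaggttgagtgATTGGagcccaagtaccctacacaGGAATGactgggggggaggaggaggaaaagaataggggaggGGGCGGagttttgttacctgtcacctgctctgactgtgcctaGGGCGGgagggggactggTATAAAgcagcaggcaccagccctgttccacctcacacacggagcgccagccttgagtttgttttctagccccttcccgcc
The window of Muc16 held none of the 6 motifs. That of Muc1 held TATAAA at base 220, GGGCGG at bases 160 and 202, and, on the opposite strand, CCAAT at base 95 and CATTCC at base 119. Over all windows TATAAA occurred in 13.6%, GGGCGG in 35.7%, CCAAT in 37.4%, AGATAA in 11.2% and GCGNGGGCG in 5.55%. The Muc16 window had 1 CG dinucleotide and the Muc1 window 6.

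**Figure D3:**
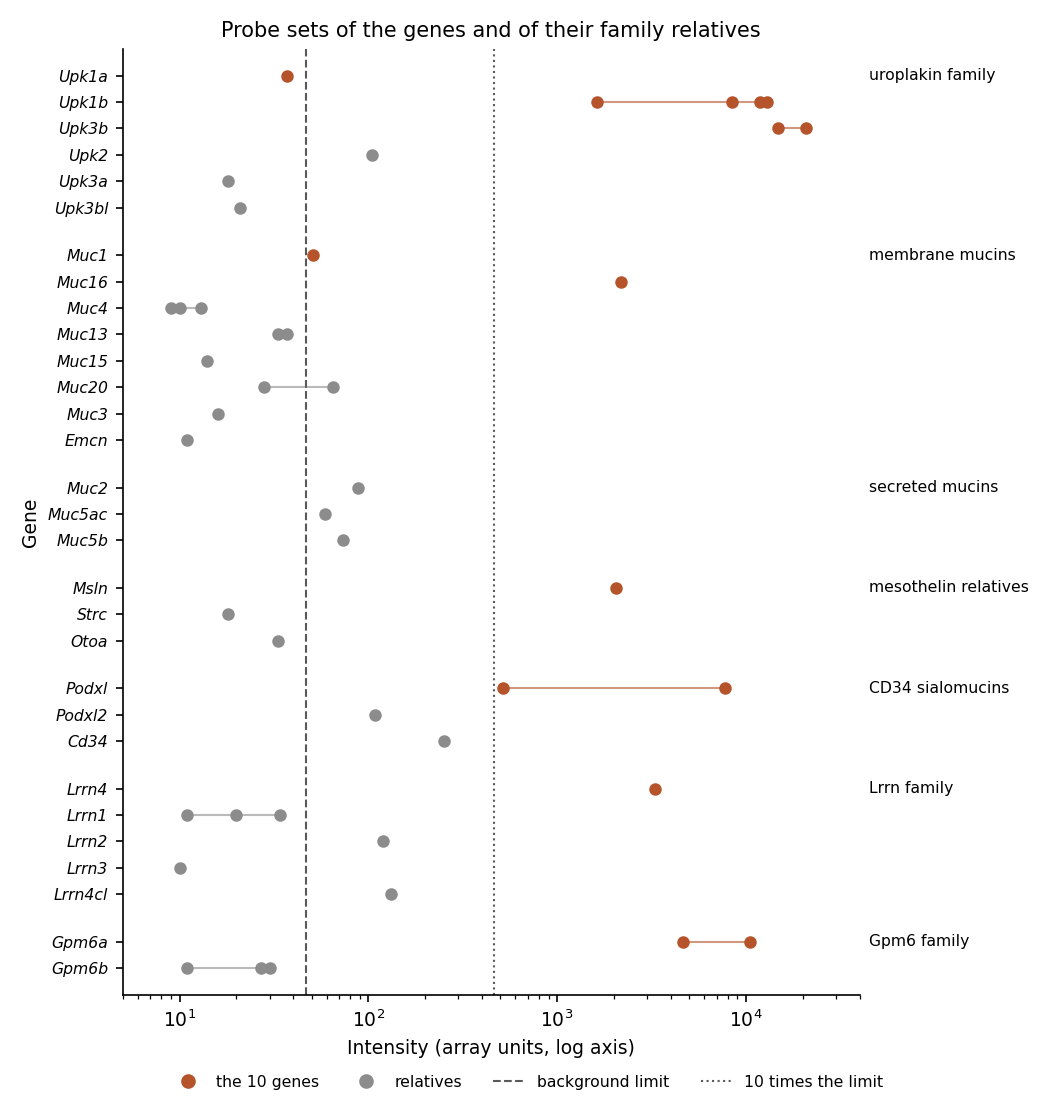
Intensity of every probe set of the 10 genes (orange) and of their family relatives (grey) on a log axis, grouped by family, with the background limit (dashed) and 10 times the limit (dotted). In the uroplakin family 2 of 6 genes lie right of the dotted line, among membrane mucins 1 of 8, and no grey point does.

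The sialoglycoproteins Pdpn and Podxl were bright, together with most, but not all, of the listed genes for their linker and partner proteins. Pdpn encodes podoplanin, a small mucin-like protein of mesothelium, lymphatic endothelium, lung type I cells and some fibroblasts, and read 7246 on its only probe set, 156 times the limit. Podxl encodes podocalyxin, a large anti-adhesive sialomucin first known from kidney podocytes, and had probe sets at 519 and 7735, the brighter 166 times the limit. Both Podxl probe sets were above 10 times the limit, yet they differed 14.9-fold although the annotation assigns both to the same sequence record. The other members of the CD34 sialomucin family, Podxl2 and Cd34, read 108 and 253, above the limit and below 10 times the limit.

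All 8 listed linker and partner genes of podocalyxin and podoplanin were above the limit, against 62.8% of all genes. Above 10 times the limit were 6 of 8, against 29.1%. Their median was 11.45 (log2 intensity). By the dimmest probe set of each gene, 5 of 8 were above the limit, against 39.7% of all genes. Ezr, which encodes ezrin, the main membrane-actin linker of microvilli, had probe sets at 383 and 11115. Its relatives Rdx (radixin) and Msn (moesin) had 373, 1850 and 2070 on 3 probe sets, and 389 and 6542 on 2 probe sets. Slc9a3r1, an adaptor that joins the tail of podocalyxin to ezrin, had 3 probe sets at 3874, 10990 and 11494. Its relative Slc9a3r2 had 6 probe sets from 97 to 434, and Clic5 had 4 from 14 to 438. Both were thus below 10 times the limit, and both were named after their values were seen. By contrast Clec1b, the receptor through which mouse platelets bind podoplanin, read 14, below the limit; it was named after its value was seen.

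Lrrn4 and Gpm6a, a pair of genes first described in neurons, were bright while their closest relatives were not. Lrrn4 encodes a leucine-rich repeat membrane protein that also serves as a mesothelial marker in the mouse, and read 3299 on its only probe set, 70.9 times the limit. Of its family, Lrrn2 and Lrrn4cl read 119 and 132, above the limit, and Lrrn1 and Lrrn3 read at most 34 and 10, below it. Gpm6a encodes a multi-pass membrane glycoprotein that promotes filopodia in neurons, and had probe sets at 4616 and 10466, the brighter 225 times the limit. The brighter one has a marked identifier, and the unmarked one was at 99.3 times the limit. Gpm6b, the relative of Gpm6a, had 3 probe sets between 11 and 30, all below the limit. Lrrn4 and Gpm6a were the only measured genes of these families above 10 times the limit, that is 1 of 5 Lrrn genes and 1 of 2 Gpm6 genes.

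Genes that build, bind or shed such a surface coat were counted in the same way. Of 18 measured enzymes of mucin-type O-glycosylation 14 passed the limit, against 62.8% of all genes, and 8 passed 10 times the limit, against 29.1%, with a median of 8.20 (log2 intensity). By the dimmest probe set of each gene 7 of 18 passed the limit, against 39.7% of all genes, so that the enzymes were close to the array as a whole on that measure. The first 4 of the list start the sugar chains: Galnt1 had probe sets at 432 and 1023, Galnt2 at 127, 249 and 660, and Galnt4 at 40, 191 and 613. Galnt3, the fourth, read at most 19. Of 10 genes for binding partners and proteases 9 passed the limit and 7 passed 10 times the limit, against the same 62.8% and 29.1%, with a median of 9.92. Lgals3, a galectin that binds mucin sugars, read 3434, and Lgals8, a galectin that binds podoplanin, read 119 and 717. Egfr, a receptor that associates with the Muc1 protein, had 7 probe sets from 9 to 1150, of which 5 were above the limit. Ctnnb1, beta-catenin, had 203, 1465 and 8726.

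Tetraspanins outside the uroplakins were above the limit in 21 of 24 measured cases and above 10 times the limit in 13. Over all genes the shares were 62.8% and 29.1%. The median of the tetraspanins was 9.06 (log2 intensity). By the dimmest probe set of each gene 17 of 24 were above the limit, against 39.7% of all genes, and the median was 6.51. Cd9, which organises membrane domains in many epithelia, read 1001, and Cd81, a widely made relative, read 12115. Cd151, a partner of laminin-binding integrins, had 6 probe sets from 77 to 9097. Cd82 read 98 and 1430. Of all 11 lists of relatives and partners, 61 of 81 measured genes outside the 10 were above the limit, against 62.8% of all genes.

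The spread between probe sets is the only spread this array offers, and 4 of the 10 genes had more than 1. For Upk3b the brighter exceeded the dimmer by 0.49 (log2), for Gpm6a by 1.18 and for Podxl by 3.90, against a median of 2.71 over 1538 genes that had 2 probe sets and a brightest level above 10 times the limit. As wide or wider a range was found in 88.3% of those genes for Upk3b, in 73.1% for Gpm6a and in 36.9% for Podxl. The 4 probe sets of Upk1b spanned 2.99, against a median of 5.33 over 571 such genes with 4 probe sets, of which 86.3% were as wide or wider. The SD between probe sets was 0.35 for Upk3b, 0.84 for Gpm6a, 1.40 for Upk1b and 2.76 for Podxl (log2; n = 2, 2, 4 and 2 probe sets). It describes disagreement between probes and is not a replicate error. No member with several probe sets had any below the limit.

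**Figure D4:**
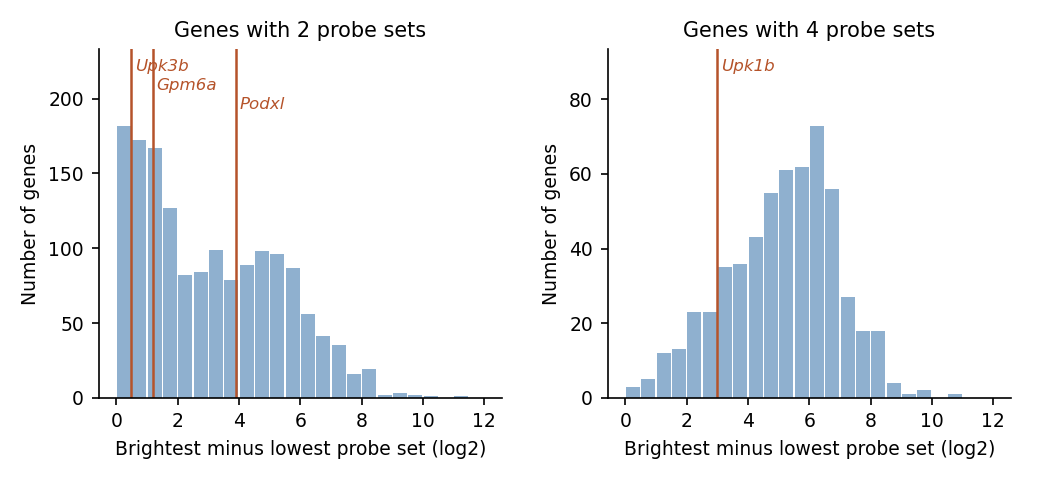
Number of genes by the log2 difference between their brightest and lowest probe sets, for genes with 2 probe sets (left, 1538 genes) and 4 probe sets (right, 571 genes) whose brightest probe set is above 10 times the limit; orange lines mark the members. Upk3b and Gpm6a lie at 0.49 and 1.18 in the left panel, Podxl at 3.90, and Upk1b at 2.99 in the right panel.

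Most listed markers of mesothelium and surface epithelium outside the 10 genes were also read at high intensity in the same library. Of 14 measured markers of mesothelium and surface epithelium outside the 10 genes, 13 were above the limit, and the same number above 10 times the limit. Over all genes the shares were 62.8% and 29.1%. By the dimmest probe set of each gene 12 of 14 were above the limit, against 39.7% of all genes. Wt1, the transcription factor that marks the coelomic lining, read 4589, and Krt18, a keratin of simple epithelia, read 3377. The exception was Calb2, which encodes calretinin, a calcium-binding protein used as a mesothelial marker in human pathology; it read 31, and was singled out after its value was seen.

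Several of the 10 genes are also made by other cell types, whose markers were divided. Of 11 urothelial markers 5 were above the limit and 0 above 10 times the limit; Krt5 and Krt20, keratins of basal and umbrella cells, read 52 and 26. Besides Krt5 and Upk2, those above the limit were Gata3 at 147, Pparg at 87 and Ppl at 194, which were named after their values were seen. Of 5 measured lymphatic endothelial markers 1 was above the limit: Prox1, the factor that defines these cells, read at most 11, Lyve1 at most 19, Flt4 46, Reln 35 and Mmrn1 92. Of 7 vascular endothelial markers 2 were above the limit, Kdr at 1813 and, named after its value was seen, Esam at 1785. The junction genes Pecam1 and Cdh5 read 14 and at most 23, Tek, an endothelial receptor kinase, read 21, and Cldn5, also named after its value was seen, read 24. Of 9 neuronal markers 2 were above the limit and 0 above 10 times the limit; Snap25, a synaptic protein, read 9 on both probe sets, Syt1 at most 33, Tubb3 68 and Rbfox3 at most 63. Prox1, Lyve1, Snap25 and Krt20 were thus below the limit on every probe set, but each of their lists also held markers above it. Over all genes, 62.8% were above the limit and 29.1% above 10 times the limit.

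Podocyte markers were above the limit in 3 of 4 measured cases. For this and the next counts, the share of all genes above the limit was 62.8%. Tcf21 and Synpo, which other cells make too, read 2200 and 1452 on their brightest probe sets, whereas Nphs1, the slit diaphragm protein nephrin, read 59 and Ptpro at most 17. Of 5 markers of lung type I cells 4 were above the limit, among them Cav1 at 2863 and Aqp5 at 800, while Ager, Hopx and Rtkn2 read at most 56, 69 and 29. Among 5 oviduct markers 2 passed the limit, Pax8 at 11 and 107 on 2 probe sets and Rsph1 at 115. Ovgp1 read 35, Foxj1 20 and Dnah5 13. Of 7 markers of glandular epithelium 3 passed it, Cdh1 at 95, Epcam at 921 and Elf3 at 69, and Ehf, a factor of glandular cells, read at most 14. Of 5 measured granulosa markers 3 passed it, Amh at 58, Inha at 1438 and Foxl2 at 11 and 321 on 2 probe sets. Nr5a2 and Fshr read at most 43 and 34.

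Fibroblast markers were above the limit in 7 of 7 cases and above 10 times the limit in 6, against 62.8% and 29.1% of all genes. Their median was 13.02 (log2 intensity). That median was 9.72 by the mean and 8.26 by the dimmest probe set of each gene, and 11.57 without marked probe sets. The probe sets of Pdgfra, which encodes a receptor kinase, read 29, 38 and 916. Of the fibrillar collagen genes, Col1a1 had 6440 and 8290, Col1a2 had 159, 14448 and 29972, and Col3a1 had 3035 and 22640. Macrophage markers were above the limit in 6 of 6 cases and above 10 times the limit in 1, Csf1r at 527. C1qb, a complement component, had 157, 264 and 361, C1qa read 244, Cd68 334, Cd14 227 and Adgre1 47, just above the limit. Pdpn is made by some fibroblasts and Lgals3 by macrophages, and the part of these cells in either intensity was not tested.

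**Figure D5:**
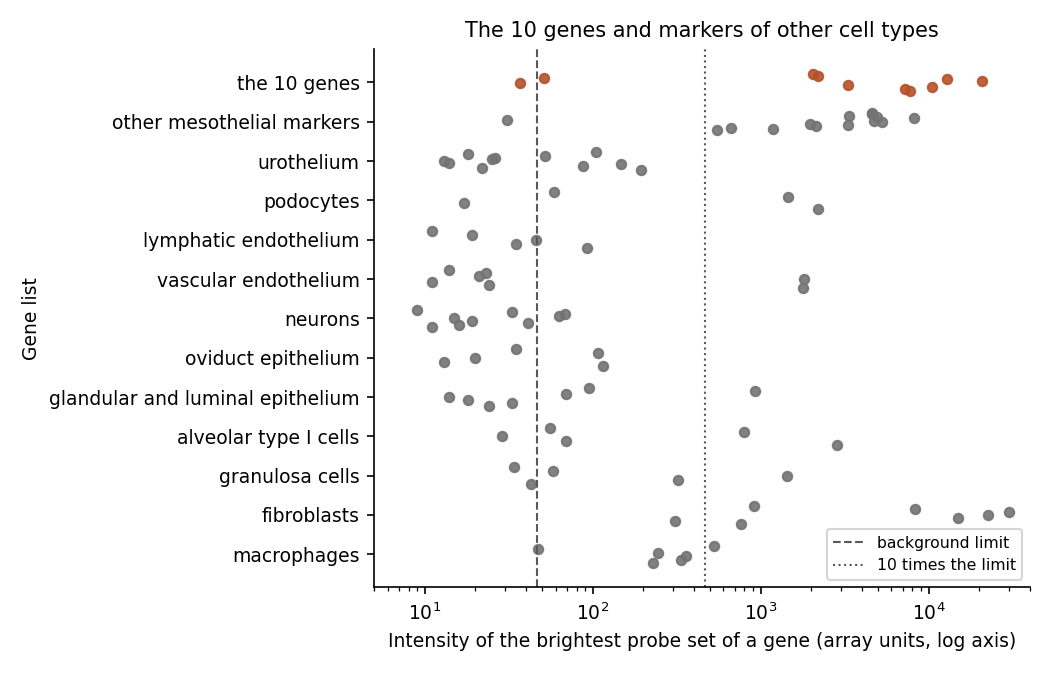
Intensity of the brightest probe set of each of the 10 genes (orange, top row) and of each measured marker of other lists (grey, 1 row per list) on a log axis, with the background limit (dashed) and 10 times the limit (dotted). Left of the dotted line lie all 11 urothelial, 9 neuronal, 5 lymphatic and 5 oviduct markers. Right of it lie 8 of the 10 genes and 6 of 7 fibroblast markers. In the row of other mesothelial markers, which holds markers of mesothelium and surface epithelium, 13 of 14 lie right of it. Also right of the dotted line lie 2 of 4 podocyte, 2 of 5 lung type I and 2 of 7 vascular markers. Of granulosa, glandular and macrophage markers, 1 of 5, 1 of 7 and 1 of 6 do.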

How the data were processed

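Total RNA from ovarian surface epithelial cells was labelled as biotinylated cRNA and hybridised to an Affymetrix array, per the labels' protocols. The authors deposited 1 intensity for each of 45101 probe sets, all whole numbers from 6 to 32341. Per the submitters' processing notes, affy and RMA were used; versions, the step from log2 to whole numbers and the set of arrays normalized with this one are not stated there or elsewhere in the sources used. Scaling and centring therefore cannot be checked on this array. RMA compresses differences between dim probe sets.

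Probe sets were named by the platform annotation; gene numbers of 34741 of 34945 single-gene probe sets matched RefSeq (GRCm38.p6). The level of a gene was the log2 intensity of its brightest probe set. With 1 array there is no test and no p-value. The 10 genes and all lists were chosen with earlier results of these data known. By the rule for named genes these were the members, every gene of lists with 6 or fewer measured, and the first 4 of longer lists; the text names fewer in some lists, and names further genes (Muc15, Muc20, Muc3, Emcn and those it marks) after their values were seen. Alternatives were other background limits, the mean or lowest probe set, leaving out marked probe sets, and a pseudocount of 16. An array has no read depth; the single array limits precision. Tools were pandas 2.3.3, NumPy 2.4.6 and matplotlib 3.10.9 under Python 3.11.15.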

Additional observations from a re-analysis of the deposited data

How the results depend on the processing

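The counts for the 10 genes stayed within 1.5 times their value under every alternative run. Between 8 and 10 genes were above background as the limit ranged from 25.5 to 100, and 8 were above 10 times the limit in each case. Muc1 and Upk1a set the difference, because these are the members near the limit. Muc1 fell below a limit set at the 99th background percentile (84.75), by -0.73 (log2), and at a limit of 100, by -0.97. Upk1a lay above the limit at the 90th percentile, by 0.54, and with odorant and pheromone receptors alone as background (29.3), by 0.34. When the dimmest probe set stood for a gene, 9 members remained above the limit while the share of all genes fell to 39.7%, against 62.8% with the brightest. Of the families, membrane mucins had 1 and secreted mucins 0 or 1 genes above the 2 higher limits, and O-glycosylation enzymes had 7 of 18 above the limit by the lowest probe set. Of the 12 member probe sets without marked identifiers 11 were above the limit. The brightest level of Podxl over the limit, 7.38 (log2), became 5.43 by the mean and 3.48 by the dimmest probe set. Over the 11 lists together, 52 to 76 genes were above the limit, with 69 as reported. Of the 482 recomputed values 4 changed sign, as given for Muc1 and Upk1a, and 49 others moved by more than 1.5 times or by more than 1.39 (log2), the median SD between probe sets of a gene. Each recomputed value came from the same array, so none of them bears on variation between animals.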

Other observations

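The genes next to the 10 on their chromosomes were read for comparison, in the order of protein-coding genes in RefSeq (GRCm38.p6) and chosen after the values of the members were seen. Of 20 neighbours 16 were measured, and 8 of these were above the limit, against 62.8% of all genes. Of the 16, 5 were above 10 times the limit, against 29.1% of all genes. They were Cox6b1, at 10868, and B4galt4, Dtx2, Crls1 and Mkln1, at 782, 680, 1159 and 668. Cox6b1, a subunit of mitochondrial cytochrome oxidase, lies next to the dim Upk1a. Upk1b, at up to 12867, lay between B4galt4, a galactosyltransferase, and Tex55, a testis gene that read 12. Muc16 lay beside Mbd3l1 at 13, and Gpm6a beside Wdr17 at 19 or below. Podxl lay between Mkln1 and a gene at 12, and Pdpn between Prdm2 at up to 259 and Lrrc38 at 30.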
